A study of Homo sapiens with 18 samples.

Results

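The silencing effect on the 24 h TGFβ response was measured as a difference of differences on the log2 scale. For each gene it was the change at 24 h of TGFβ over untreated in siPKCiz cells, minus the same change in siControl cells. A negative value means less rise, or more fall, in the siPKCiz arm. The 12 arrays that enter it, of 18 in the series, were chosen by their labels, 3 in each of 4 groups. All came from A549, an established human lung adenocarcinoma line. The siPKCiz 24 h group was transfected with siRNA to PKCiota and PKCzeta, the pair of atypical protein kinases C, serum starved, given 250 pM TGFβ for 1 h, washed and left for 23 h in serum-deprived medium. The siPKCiz untreated group had the same siRNA and no ligand. The siControl 24 h and siControl untreated groups had control siRNA, with and without the same ligand pulse. Both isoforms were silenced together in 1 cell line, so their separate effects cannot be told apart, and no collection time is labelled for the untreated groups.

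TGFβ binds the type II receptor TGFBR2, which activates the type I receptor TGFBR1, and the receptors phosphorylate SMAD2 and SMAD3, which enter the nucleus with SMAD4 and switch target genes on or off. In A549 cells TGFβ is widely used to drive an epithelial to mesenchymal transition, in which E-cadherin is lost and N-cadherin, matrix proteins and proteases are gained. The atypical protein kinases C act with PAR3, PAR6 and CDC42 in cell polarity, and PAR6 is itself a target of the TGFβ receptors.

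Deposited intensities ran between 21.2 and 51230, with medians per array of 156.1 to 160.7. All 6 epithelial markers measured, keratins, EPCAM and CDH1 among them, lay above the array median in each of the 4 groups, against 1 of 9 leukocyte, 2 to 4 of 9 fibroblast and 0 of 8 endothelial markers. The summed epithelial marker intensity was 18695 to 21650 in siPKCiz 24 h cells, 21255 to 22377 in siPKCiz untreated cells, 17297 to 20499 in siControl 24 h cells and 19498 to 21131 in siControl untreated cells. The array of replicate 1 stood farthest from its group mates in all 6 groups of the series.

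The silenced genes were read first. PRKCI, which encodes PKCiota, stood in siPKCiz cells at 17.4% to 20.8% of siControl cells in replicate 1 and at 19.8% to 23.3% in replicates 2 and 3, over the untreated, 8 h and 24 h conditions. PRKCZ, which encodes PKCzeta, stood at 68.2% to 91.4% in replicate 1 and at 33.1% to 40.0% in replicates 2 and 3. PRKCZ intensity was 205.7, 189.1 and 152.4 in siPKCiz 24 h cells of replicates 1, 2 and 3, and 242.1, 141.9 and 162.2 in siPKCiz untreated cells. It was 301.7, 472.2 and 408.5 in siControl 24 h cells and 264.9, 398.1 and 490.0 in siControl untreated cells. PRKCI was thus low in every siPKCiz array, whereas PRKCZ in replicate 1 was less far below its control than in the other numbers, and that control was the dimmest of the 3. Results are given with and without replicate 1. Leaving out each replicate was among the alternatives run. The leading genes without replicate 1 were added only after no gene was called with all 3 replicates. The part of PRKCZ level in these results was not tested.

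**Figure D1:**
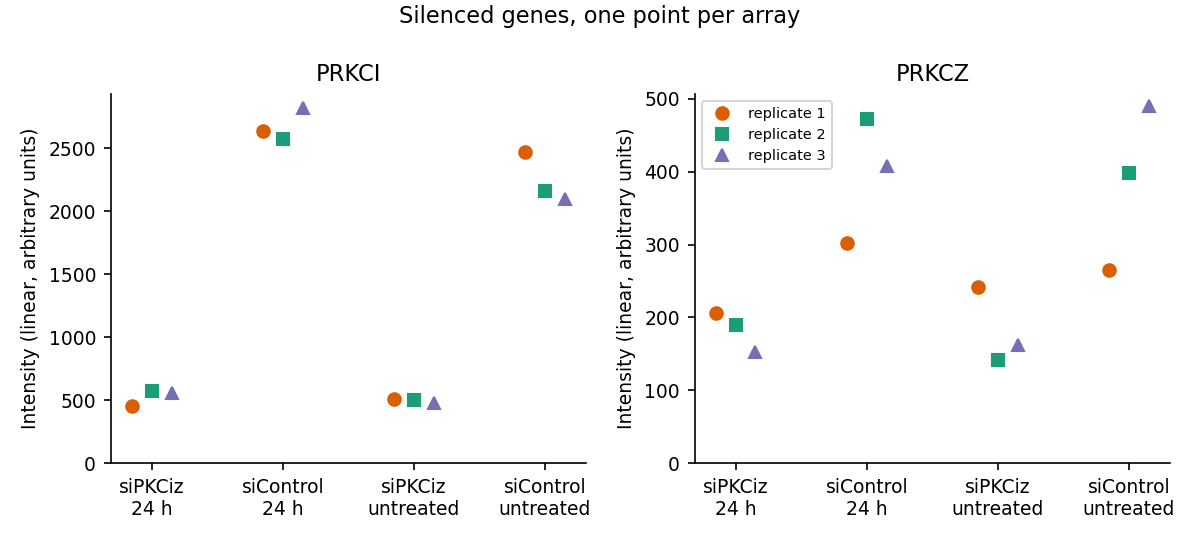
Intensity (linear, arbitrary units) of PRKCI and PRKCZ on each array, with siPKCiz left of siControl at 24 h and then untreated; colours and shapes mark the replicate numbers. PRKCI is low in all siPKCiz arrays, while the PRKCZ gap between the arms is narrow in replicate 1, where siPKCiz stood at 68.2% to 91.4% of siControl.

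With all 3 replicates, no gene had a 24 h response that the test called different between the arms. In the limma fit over 18 arrays, 0 of 18377 genes (0%) passed a Benjamini-Hochberg adjusted p of 0.05. An unadjusted p of 0.05 was passed by 705 (3.84%), 334 higher and 371 lower in siPKCiz. About 919 would pass it if no gene differed, so unadjusted p-values below are descriptive. The smallest adjusted p was 0.9997. The median standard error of the difference was 0.141 log2 units and the median half-width of its 95% interval 0.296.

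The gene with the smallest unadjusted p, 7.47e-05 in the limma fit, was MATN3, a cartilage matrix protein. Its intensity was 720.9, 592.3 and 605.7 in siPKCiz 24 h cells and 550.9, 639.5 and 620.0 in siPKCiz untreated cells. It was 751.2, 801.8 and 779.9 in siControl 24 h cells and 447.1, 474.5 and 488.4 in siControl untreated cells. The treated and untreated arrays overlapped in siPKCiz and were apart in siControl, where all 3 numbers had a change of 0.68 to 0.76. The difference of responses was -0.65 ± 0.13 (SE, n = 3 arrays per group), with a 95% interval of -0.91 to -0.38. It was called only when arrays were weighted by quality, at -0.71 (limma adjusted p = 0.040), or without replicate 1, at -0.79 (limma adjusted p = 0.0056).

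Each arm by itself responded broadly. In siPKCiz cells 855 genes (4.65%) rose and 1119 (6.09%) fell at 24 h, and in siControl cells 1075 (5.85%) rose and 1187 (6.46%) fell. Of these, 657 rose and 746 fell in both arms, which is 71.1% of the siPKCiz calls and 62.0% of the siControl calls, and 0 genes were called in opposite directions. The arms share no array, and their responses had a correlation of 0.847 across genes, which are not independent replicates. Of the 277 genes called in siControl with a change of at least 2-fold, the 95% interval of the difference excluded a complete loss of the response for 265, a loss of 50% or more for 125 and a gain of 50% or more for 222. The median difference of these genes, signed so that negative means damped, was -0.19. The siControl arrays chose these genes, which by itself leans this median towards damping. Without replicate 1 the same choice gave 316 genes with a median of -0.44, of which 285 were below 0.

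The replicate numbers disagreed on the direction. The size of the response was read in each number on 200 genes ranked in siControl cells of the other 2 numbers. The numbers only name the samples here and are not shown to pair them. In replicate 1 the mean signed change of those genes was 1.66 in siPKCiz and 1.33 in siControl, a ratio of 1.24. In replicate 2 it was 1.10 in siPKCiz and 1.56 in siControl, a ratio of 0.708. In replicate 3 it was 1.16 in siPKCiz and 1.51 in siControl, a ratio of 0.766. The response was thus larger in silenced cells in replicate 1 and smaller in replicates 2 and 3. The change was smaller in siPKCiz for 48 of the 200 genes in replicate 1, 174 in replicate 2 and 158 in replicate 3. Rises and falls had similar ratios, 1.26 and 1.22 in replicate 1, 0.693 and 0.730 in replicate 2, and 0.758 and 0.779 in replicate 3. Across all genes the differences of replicates 2 and 3 had a correlation of 0.295, those of 1 and 2 of -0.115 and those of 1 and 3 of -0.049. The 4762 genes with 1 sign in all 3 numbers were 25.9% of those tested.

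**Figure D2:**
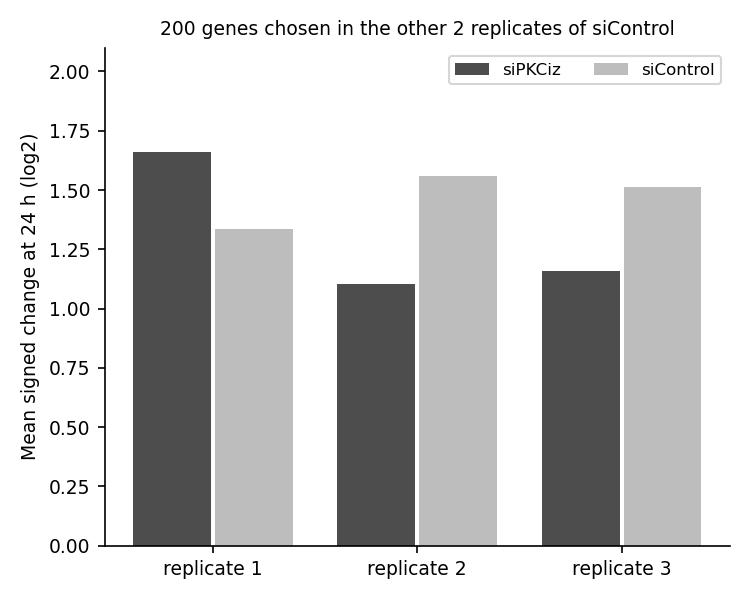
Mean signed log2 change at 24 h of 200 genes, siPKCiz left of siControl, in each replicate number; the genes and signs were taken from siControl in the other 2 numbers. The siPKCiz bar is the taller one in replicate 1 (1.66 against 1.33) and the shorter one in replicates 2 and 3; there are no error bars because each bar is 1 pair of arrays.

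Among the responses, 152 met the rule for kept, 87 that rose and 65 that fell in both arms. The rule asked for a call in both arms in 1 direction and a 95% interval of the difference within 50% of the siControl response. They were 6.72% of the 2262 siControl calls, and the other 2110 were undecided at this precision. Without replicate 1, 93 of the 152 were still kept, 58 were undecided and LCE3D was called damped.

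SLN, which encodes sarcolipin, a small regulator of the calcium pump of muscle, had a siControl response close to the largest of the kept genes. Its intensity was 6452, 3231 and 3771 in siPKCiz 24 h cells and 356.6, 367.5 and 401.1 in siPKCiz untreated cells. It was 4394, 4877 and 4411 in siControl 24 h cells and 199.5, 459.1 and 498.4 in siControl untreated cells. The treated and untreated arrays were far apart in both arms. The response was 3.52 ± 0.27 in siPKCiz and 3.67 ± 0.27 in siControl (SE, n = 3), and the interval of the difference was -0.96 to 0.65.

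HHLA2, an immune checkpoint ligand of the B7 family, had the narrowest interval among the 10 largest kept responses, -0.27 to 0.45. It rose by 2.41, 2.50 and 2.49 in siPKCiz replicates 1, 2 and 3, and by 2.06, 2.69 and 2.38 in siControl. The gelatinase MMP2 had a response of 2.68 in siPKCiz and 2.89 in siControl, the basement membrane collagen COL4A1 2.14 and 2.27, and the actin-binding transgelin, TAGLN, 1.99 and 2.22. SEMA7A, a membrane-anchored semaphorin, had 2.45 and 2.85, and the xylosyltransferase GXYLT2 2.39 and 2.70. Of the kept falls, the cAMP phosphodiesterase PDE8B had -2.06 in siPKCiz and -2.35 in siControl, and the glutathione peroxidase GPX2 -1.95 and -2.28. In MMP2, COL4A1, TAGLN, GXYLT2 and SEMA7A the siPKCiz response exceeded the siControl one in replicate 1 and was below it in replicates 2 and 3, so a kept response can average opposite deviations.

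LCE3D, a late cornified envelope gene, had the largest siControl response of the kept genes. It rose by 4.98, 3.39 and 3.50 in siPKCiz and by 4.19, 4.26 and 4.21 in siControl. Without replicate 1 its difference was -0.79 (limma adjusted p = 0.019), which left a rise of 3.45 in siPKCiz against 4.24 in siControl.

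Without replicate 1, the fit over the remaining 12 arrays, 2 per group with 6 residual degrees of freedom, called 80 genes. Its SEs and p-values leave out the spread that replicate 1 adds, so they describe replicates 2 and 3 only. The difference was higher in siPKCiz for 31 (0.169%) and lower for 49 (0.267%). Of these, 77 were damped, 46 whose siControl rise was smaller in siPKCiz and 31 whose siControl fall was smaller. The siPKCiz response of 27 of the 46 and 20 of the 31 was itself still called, and none was called in the opposite direction, though 11 of the 77 had an uncalled siPKCiz change of opposite sign. A median of 32.1% of the siControl log2 change was left among the damped rises and 32.4% among the damped falls. These are values of genes picked for their difference. Leaving out replicate 2 or replicate 3 in its place gave 0 calls.

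Replicate 1, which took no part in those calls, did not show the same damping. Of the 49 lower genes, 15 had the same sign there and 34 (69.4%) the opposite one, with a median difference of 0.21 in replicate 1, -0.87 in replicate 2 and -0.87 in replicate 3. Of the 31 higher genes, 11 had the same sign and 20 (64.5%) the opposite one, with medians of -0.30, 0.78 and 0.79. Among all genes lower without replicate 1, 51.8% had the opposite sign in it, and among all genes higher, 52.7%.

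**Figure D3:**
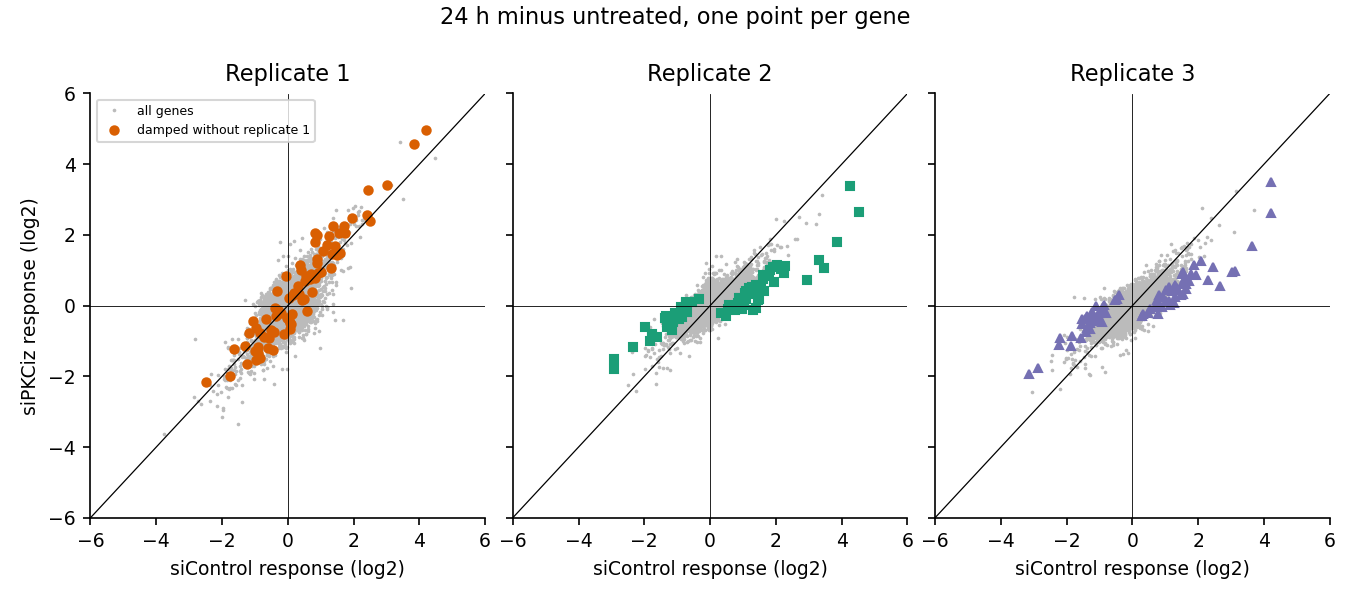
Response of each gene at 24 h (log2, 24 h minus untreated) in siPKCiz on the vertical axis and in siControl on the horizontal axis, 1 panel per replicate number; grey points are all 18377 genes, coloured points the 77 called damped without replicate 1, and the diagonal marks equal responses. In replicates 2 and 3, whose arrays chose them, the coloured points lie nearer to the horizontal zero line than the diagonal does, and 11 have a siPKCiz change of opposite sign in the fit without replicate 1; in replicate 1 many lie on or beyond the diagonal.

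The damped rises that led without replicate 1 were named after their values were seen. IL1A, the cytokine interleukin-1 alpha, had an intensity of 300.3, 167.1 and 157.3 in siPKCiz 24 h cells and 91.8, 68.3 and 81.4 in siPKCiz untreated cells. It was 239.6, 939.3 and 814.9 in siControl 24 h cells and 104.5, 93.8 and 100.7 in siControl untreated cells. The siControl 24 h array of replicate 1 was the low one of its group, and the siPKCiz 24 h array of replicate 1 the high one. The difference was -2.05 ± 0.17 without replicate 1 (limma adjusted p = 8.5e-06), with 35.3% of the siControl change left, and -1.20 ± 0.49 with all 3 (limma unadjusted p = 0.025).

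RASGRP3, an exchange factor that activates Ras and Rap, had 1357, 527.2 and 497.6 in siPKCiz 24 h cells and 128.2, 318.4 and 340.2 in siPKCiz untreated cells. It had 1067, 1552 and 1498 in siControl 24 h cells and 132.0, 200.1 and 238.6 in siControl untreated cells. Its siControl rise was alike in the 3 numbers, at 3.02, 2.95 and 2.65, whereas its siPKCiz rise was 3.40, 0.73 and 0.55. The difference was -2.16 ± 0.16 without replicate 1 (limma adjusted p = 2.9e-06) and -1.31 ± 0.53 with all 3.

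TNFAIP6, a secreted hyaluronan-binding protein, had 2678, 725.8 and 721.8 in siPKCiz 24 h cells and 112.5, 116.0 and 117.1 in siPKCiz untreated cells. It had 1985, 5735 and 5073 in siControl 24 h cells and 140.3, 246.8 and 275.5 in siControl untreated cells. It rose strongly in every pair of arrays. Its difference was -1.74 ± 0.13 without replicate 1 (limma adjusted p = 2.9e-06) and -0.91 ± 0.63 with all 3.

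The promoters of these genes are shown because many TGFβ and cytokine responses run through AP-1. The pattern TGANTCA, searched on both strands, takes in the AP-1 core sites TGACTCA and TGAGTCA and also TGAATCA and TGATTCA, which are not that core. The bases are the 250 before the RefSeq start site (GRCh38.p14, 5′ to 3′ on the gene's strand), with matches to this pattern in capitals. The 5 genes were chosen after their values and matches were seen: 4 of the 5 leading damped rises and HHLA2 from the kept ones.
IL1A (chr2:112784494-112784743, minus strand): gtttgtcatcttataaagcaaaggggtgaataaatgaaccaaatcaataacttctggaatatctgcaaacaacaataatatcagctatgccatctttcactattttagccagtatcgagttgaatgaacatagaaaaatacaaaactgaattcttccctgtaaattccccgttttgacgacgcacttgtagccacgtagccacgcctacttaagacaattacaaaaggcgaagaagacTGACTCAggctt
TNFAIP6 (chr2:151357342-151357591, plus strand): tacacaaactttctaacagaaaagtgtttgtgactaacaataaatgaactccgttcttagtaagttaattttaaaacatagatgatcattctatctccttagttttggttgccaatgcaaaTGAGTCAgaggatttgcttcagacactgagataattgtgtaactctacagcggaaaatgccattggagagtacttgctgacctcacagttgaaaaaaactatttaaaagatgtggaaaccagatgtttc
ODAPH (chr4:75555816-75556065, plus strand): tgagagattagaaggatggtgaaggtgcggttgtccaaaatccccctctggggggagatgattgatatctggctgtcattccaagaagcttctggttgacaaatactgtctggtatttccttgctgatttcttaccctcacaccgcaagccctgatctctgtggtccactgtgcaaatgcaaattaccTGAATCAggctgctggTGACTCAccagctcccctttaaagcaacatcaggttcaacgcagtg
RASGRP3 (chr2:33436098-33436347, plus strand): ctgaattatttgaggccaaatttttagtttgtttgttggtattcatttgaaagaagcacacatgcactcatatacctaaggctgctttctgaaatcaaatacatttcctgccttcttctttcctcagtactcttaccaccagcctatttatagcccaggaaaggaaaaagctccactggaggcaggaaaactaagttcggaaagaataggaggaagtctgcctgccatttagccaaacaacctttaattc
HHLA2 (chr3:108296298-108296547, plus strand): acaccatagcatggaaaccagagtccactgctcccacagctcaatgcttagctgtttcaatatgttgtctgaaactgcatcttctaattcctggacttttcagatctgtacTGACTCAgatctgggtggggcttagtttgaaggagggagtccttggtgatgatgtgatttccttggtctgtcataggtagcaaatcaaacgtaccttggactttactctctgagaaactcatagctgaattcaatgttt
The first base of the match lay at -12 from the start site in IL1A, -129 in TNFAIP6, -62 (TGAATCA) and -46 in ODAPH and -139 in HHLA2, and these letters were not in the RASGRP3 window. A match was found in 4 of the 35 damped rises with a listed promoter (11.4%), 4 of 22 damped falls (18.2%), 3 of 68 kept rises (4.41%), 1 of 45 kept falls (2.22%), 698 of the 14210 genes tested that have a listed promoter (4.91%) and 1801 of all 27305 promoters (6.60%). The SMAD motif CAGACA was found in 5 damped rises (14.3%) and 12 kept rises (17.6%), in 3 damped falls (13.6%) and 8 kept falls (17.8%), against 11.4% of genes tested and 13.6% of all promoters. The TEAD motif GGAATG was found in 10 damped rises (28.6%) and 6 kept rises (8.82%), in 3 of 22 damped falls and 9 of 45 kept falls, against 9.98% of genes tested and 11.9% of all promoters. The damped share of the TEAD motif was above the kept one for rises and below it for falls. The Snail E-box CAGGTG was found in 7 damped rises and 15 kept rises (22.1%), in 6 damped falls (27.3%) and 6 kept falls (13.3%), against 16.8% of genes tested and 17.5% of all promoters. These are counts of letters in a window, with no test.

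ODAPH, a phosphoprotein known from tooth enamel, had 272.9, 114.2 and 96.9 in siPKCiz 24 h cells and 66.1, 54.8 and 49.2 in siPKCiz untreated cells. It had 111.9, 597.2 and 555.0 in siControl 24 h cells and 63.6, 54.0 and 63.8 in siControl untreated cells. Replicate 1 ran the opposite way to the others, at a difference of 1.23 against -2.41 and -2.14. The value was -2.28 ± 0.16 without replicate 1 (limma adjusted p = 2.9e-06) and -1.11 ± 0.65 with all 3.

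LCE3E, a neighbour of LCE3D in the epidermal differentiation cluster, had a difference of -2.0 without replicate 1 and 0.82 in replicate 1. The other leading rises had smaller differences without replicate 1. They included the ligand WNT7A (-1.34), the substance P receptor TACR1 (-1.28), the neuropeptide galanin, GAL (-1.26), the heparan sulfate sulfotransferase HS3ST3B1 (-1.24), the insulin-like growth factor binding protein IGFBP5 (-1.22), the activin subunit INHBA (-1.16), the GABA transporter SLC6A13 (-1.14), the angiogenic factor VEGFA (-1.10), the MYC antagonist MXD1 (-1.05) and ELMOD1 (-1.05). In replicate 1 the sign was the same for TACR1 (-0.05), GAL (-0.11), HS3ST3B1 (-0.37) and ELMOD1 (-0.29). It was opposite for WNT7A (0.55), IGFBP5 (0.16), INHBA (0.98), SLC6A13 (0.21), VEGFA (0.88) and MXD1 (0.60).

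For HS3ST3B1 the intensities were 151.4, 120.5 and 118.3 in siPKCiz 24 h cells and 178.8, 105.0 and 111.3 in siPKCiz untreated cells. They were 126.6, 277.6 and 254.4 in siControl 24 h cells and 115.4, 98.3 and 105.8 in siControl untreated cells. The gene had no called response in siPKCiz with all 3 replicates (0.02 ± 0.22) and rose in siControl (0.97 ± 0.22, limma adjusted p = 0.0062).

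AGR2 was among the damped falls that led without replicate 1. AGR2, a disulfide isomerase needed for mucin production, had 800.3, 1241 and 1294 in siPKCiz 24 h cells and 3565, 4312 and 4910 in siPKCiz untreated cells. It had 635.0, 361.3 and 322.2 in siControl 24 h cells and 3557, 2741 and 2832 in siControl untreated cells. AGR2 fell in both arms, and its difference was above 0 in all 3 numbers, at 0.33, 1.13 and 1.21. The value was 1.17 ± 0.21 without replicate 1 (limma adjusted p = 0.022) and 0.89 ± 0.37 with all 3 (unadjusted p = 0.026 in limma).

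SLC27A2, a very long chain acyl-CoA synthetase, had 1752, 1748 and 1625 in siPKCiz 24 h cells and 3009, 3904 and 3538 in siPKCiz untreated cells. It had 1166, 569.6 and 667.8 in siControl 24 h cells and 2648, 2912 and 3102 in siControl untreated cells. All 3 siPKCiz 24 h arrays were above all 3 siControl 24 h arrays. The difference was 1.14 ± 0.14 without replicate 1 (limma adjusted p = 0.0012) and 0.90 ± 0.26 with all 3 (unadjusted p = 0.0031 in limma).

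PDK4, the kinase that switches off pyruvate dehydrogenase, had the highest difference without replicate 1, 1.26 ± 0.21 (limma adjusted p = 0.012). It was -0.22 in replicate 1. The other leading falls were RAB27B (1.07), a GTPase of secretory granules, ARSJ (1.05), TMC5 (1.05), EMP1 (1.04), FSTL4 (0.97), FLVCR2 (0.96), the prostaglandin dehydrogenase HPGD (0.93), the transcription factor TFAP2C (0.86), the arginine deiminase PADI3 (0.85), the sodium leak channel NALCN (0.81), TM4SF18 (0.78) and EVA1C (0.78). Replicate 1 had the same sign for HPGD, PADI3, NALCN and TM4SF18, between 0.08 and 0.36, and the opposite sign for the other 8.

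**Figure D4:**
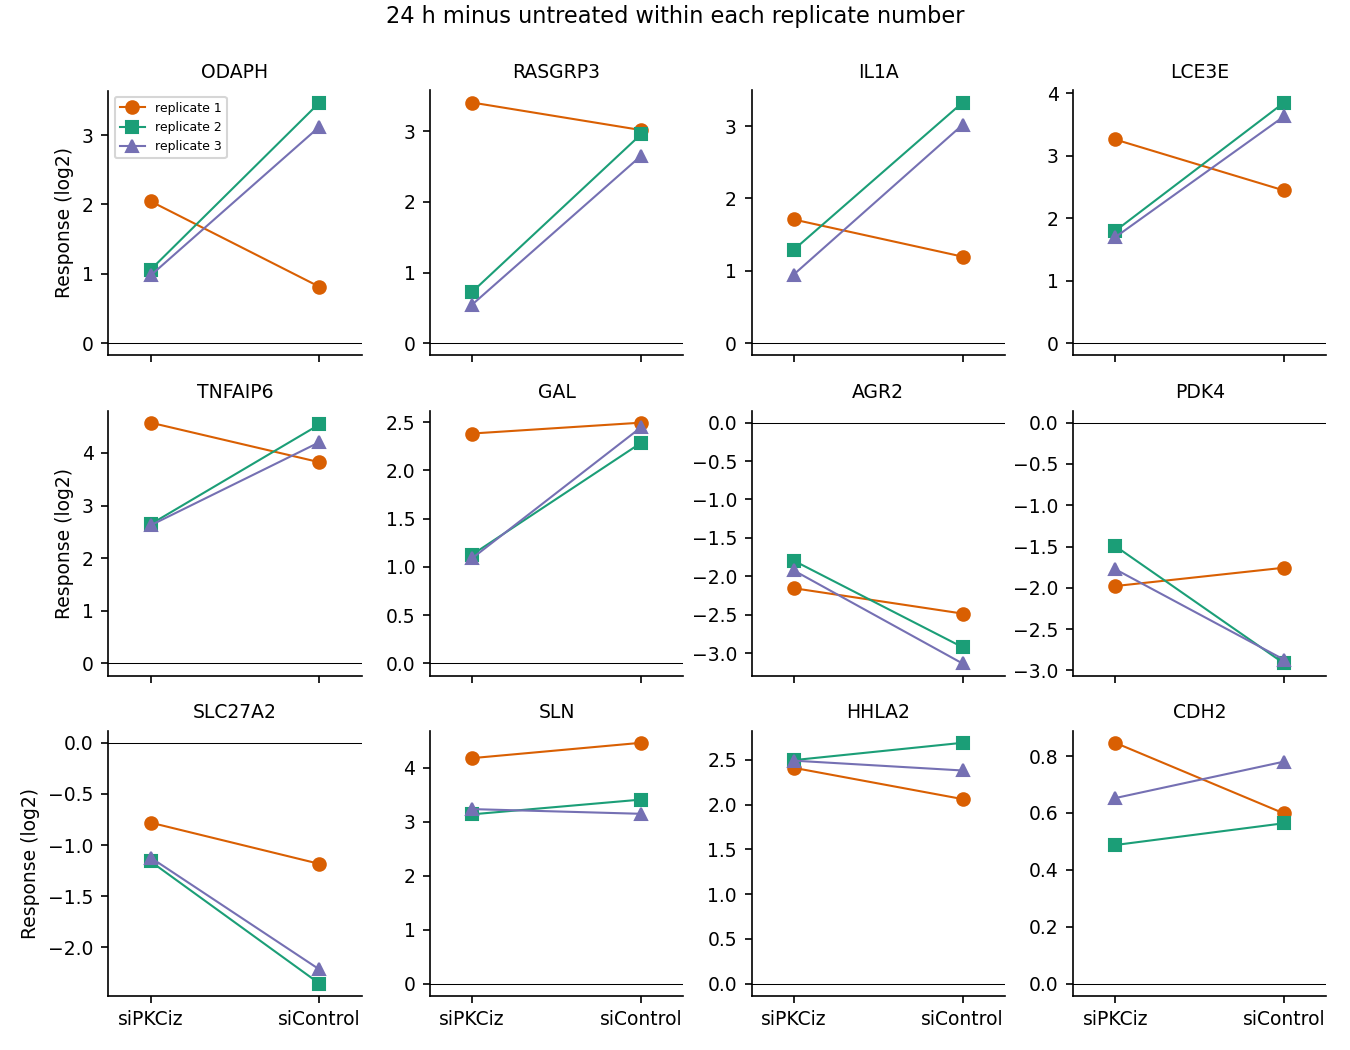
Response at 24 h (log2, 24 h minus untreated) of 12 genes in siPKCiz (left) and siControl (right); each line joins the arrays of 1 replicate number, and each panel has its own vertical scale. Replicates 2 and 3 share a slope in the first 9 genes while replicate 1 is shallower or turned, and in the kept genes SLN, HHLA2 and CDH2 the arms lie close together.

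Enlarged and gained responses were few. Without replicate 1, FGB, the fibrinogen beta chain, was the 1 enlarged response. It fell by 2.57, 1.83 and 1.97 in siPKCiz and by 1.82, 1.23 and 1.29 in siControl, a difference of -0.64 without replicate 1 (limma adjusted p = 0.019) and -0.68 ± 0.39 with all 3. FGB was also higher in siPKCiz before ligand, by 1.13 (limma adjusted p = 0.029). The gained responses were FFAR4, a receptor of long chain fatty acids, and TC2N. FFAR4 had 70.0, 96.4 and 86.6 in siPKCiz 24 h cells and 201.3, 197.1 and 229.6 in siPKCiz untreated cells, and 87.8, 69.2 and 71.8 in siControl 24 h cells and 165.1, 85.4 and 92.4 in siControl untreated cells. The arms overlapped at 24 h, and the untreated level was higher in siPKCiz (0.93, limma adjusted p = 0.017). The FFAR4 response was -1.52, -1.03 and -1.41 in siPKCiz and -0.91, -0.30 and -0.37 in siControl. TC2N had -1.54, -0.91 and -0.73 in siPKCiz and -1.67, 0.25 and 0.05 in siControl, so in replicate 1 it fell in both arms. Its untreated intensity was 504.9, 407.4 and 375.7 in siPKCiz and 440.8, 194.2 and 210.6 in siControl. At 24 h the arms overlapped for TC2N too, at 173.4, 217.1 and 226.1 in siPKCiz and 138.7, 231.1 and 217.5 in siControl.

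Among genes with 1 sign in all 3 numbers, picked for the largest minimum over the numbers, none was called with all 3 replicates. KITLG, the ligand of the KIT receptor, had a response of -1.19, -1.43 and -1.25 in siPKCiz and -0.26, -0.65 and -0.20 in siControl, a difference of -0.92 ± 0.22. Its untreated level was higher in siPKCiz, at 245.7, 372.3 and 279.6 against 148.4, 126.3 and 124.9 in siControl. NOS1, the neuronal nitric oxide synthase, had -0.12, 0.12 and -0.10 in siPKCiz and -0.78, -0.63 and -0.80 in siControl (0.70 ± 0.19). SFRP1, a secreted WNT antagonist, had -0.42, -0.35 and -0.38 in siPKCiz and -1.06, -1.17 and -1.08 in siControl (0.72 ± 0.21). NOS1 and SFRP1 fell in siControl by similar amounts in the 3 numbers, which are not shown to pair the samples. The NOS1 siControl arrays themselves spread more, at 268.4, 189.8 and 249.4 untreated and 156, 123 and 143 at 24 h. No call was made for either gene in siPKCiz.

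By family, 46 lists with 750 measured genes were read, and 0 members were called with all 3 replicates (0% of all genes). The median difference of a list lay between -0.17 and 0.10, against -0.01 for all genes. In 43 lists with members called in the mean response of both arms, the size of the siPKCiz response was divided by that of siControl in each number. This ratio was above 1 in 37 lists in replicate 1, 7 in replicate 2 and 8 in replicate 3. It was above 1 in replicate 1 and below 1 in both others in 30 lists, above 1 in all numbers in 4, and below 1 in all in 3. The split by replicate was thus found in most families.

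TGFβ receptors and SMADs had no called difference. TGFBR1 rose and was kept, with 1.37, 1.38 and 1.64 in siPKCiz and 1.24, 1.44 and 1.47 in siControl, though before ligand it was lower in siPKCiz (-0.77, limma adjusted p = 0.0083). TGFBR2 fell by 0.57 ± 0.11 in siPKCiz and by 0.69 ± 0.11 in siControl, and it too was lower in siPKCiz before ligand (-0.80, limma adjusted p = 0.00066). The inhibitory SMAD7 rose by 0.75 ± 0.15 in siPKCiz and 0.65 ± 0.15 in siControl. Of 33 early TGFβ targets, 17 rose and 1 fell in siPKCiz, beside 4.65% and 6.09% of all genes. In siControl 19 rose and 0 fell, beside 5.85% and 6.46% of all genes. The list's ratio was 1.54, 0.728 and 0.870 in replicates 1, 2 and 3. Without replicate 1, CCN1 (-0.83), CCN2 (-0.75) and VEGFA (-1.10) of the early target list were called lower, beside 0.267% of all genes.

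Of the transition genes, CDH1, CDH2, SNAI1, SNAI2 and VIM changed in both arms. The E-cadherin gene CDH1 had 218.0, 404.2 and 372.5 in siPKCiz 24 h cells and 930.5, 851.2 and 719.7 in siPKCiz untreated cells. It had 227.7, 227.5 and 185.2 in siControl 24 h cells and 764.8, 606.8 and 605.3 in siControl untreated cells. Its fall was kept, at -1.37 ± 0.17 in siPKCiz and -1.62 ± 0.17 in siControl. The siPKCiz fall of CDH1 was larger than the siControl one in replicate 1 and smaller in replicates 2 and 3. Here too a kept response averaged opposite deviations. The rise of CDH2, N-cadherin, was kept within a narrow interval, -0.20 to 0.23, at 0.66 in siPKCiz and 0.65 in siControl. EPCAM had the highest difference of the 30 epithelial markers measured, 0.69, not called. It fell less in siPKCiz than in siControl in each replicate number.

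SNAI1, a repressor of CDH1, rose by 1.20 in siPKCiz and 1.34 in siControl and was kept. Its siPKCiz rise was above the siControl one in replicate 1 and below it in replicates 2 and 3. SNAI2 rose by 2.23, 2.41 and 2.75 in siPKCiz and by 1.48, 2.24 and 2.12 in siControl, above the control in all 3 numbers but not called (0.51 ± 0.25, limma unadjusted p = 0.053). The intermediate filament VIM rose by 0.41 in siPKCiz and 0.62 in siControl. ZEB1, another repressor of CDH1, had 0.27 ± 0.09 in siPKCiz, not called, and rose by 0.44 ± 0.09 in siControl. FN1, fibronectin, was called in neither arm, with 0.31, 0.02 and 0.22 in siPKCiz and -0.17, 0.69 and 0.64 in siControl. Of 20 mesenchymal markers, 11 rose in siPKCiz and 11 in siControl, and CDH2, TAGLN, MMP2, SPOCK1 and SERPINE2 were kept. Over all genes the shares were 4.65% and 5.85%, with 0.827% kept.

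Matrix genes rose in similar numbers in both arms. Over all genes 4.65% rose and 6.09% fell in siPKCiz, 5.85% rose and 6.46% fell in siControl, and 0.827% were kept. Of 25 collagen chains, 9 rose in siPKCiz and 8 in siControl, with COL4A1, COL4A2 and COL5A1 kept. Of 21 metalloproteinases and their inhibitors, 8 rose and 2 fell in siPKCiz and 7 rose and 2 fell in siControl, with MMP1, MMP2, MMP10, TIMP2 and TIMP3 kept. MMP9 of the same list had 0.45, 0.71 and 0.27 in siPKCiz and 1.36, 1.07 and 0.99 in siControl, lower in all 3 numbers and not called (-0.66 ± 0.19, unadjusted p = 0.0022 in limma). Of 19 integrins, 7 rose and 2 fell in siPKCiz and 6 rose and 2 fell in siControl. Without replicate 1, 1 of the 19 integrins, ITGB3, was called lower (-0.98), beside 0.267% of all genes. ITGB8 had -1.72, -0.96 and -0.86 in siPKCiz and -0.45, -0.59 and -0.30 in siControl, not called. Its untreated intensity was higher in siPKCiz, at 333.3, 221.2 and 214.3 against 156.2, 140.7 and 137.2 in siControl. At 24 h the arms overlapped, at 101.5, 113.6 and 117.9 in siPKCiz and 114.4, 93.4 and 111.7 in siControl.

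The lowest list ratios in replicates 2 and 3 were those of IGF binding proteins, 0.405 and 0.446, with 1.19 in replicate 1, over 4 responding members. NF-kB targets had 0.534 and 0.697, with 0.826 in replicate 1, PPAR targets 0.567 and 0.709, with 1.75, and the A549 epithelial identity markers 0.605 and 0.546, with 0.984. RASGRP and DOCK exchange factors had 0.571 and 0.617, with 1.09 in replicate 1, and YAP and TEAD targets 0.635 and 0.629, with 1.42. Within the 14 exchange factors measured the members parted. RASGRP1 and RASGRP3 were called lower without replicate 1, beside 0.267% of all genes. DOCK2, with a response of 1.77 in siPKCiz and 1.88 in siControl, and DOCK4, with 1.21 and 1.30, were kept. Over all genes 0.827% were kept.

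In antioxidant, liver-type, chemokine and stress response lists the ratio in replicates 2 and 3 was close to 1 or above it. Their falls stand beside 6.09% of all genes that fell in siPKCiz and 6.46% in siControl, and 0.827% were kept. Of 19 NRF2 targets, 15 fell in siPKCiz and 13 in siControl, with ratios of 0.802, 1.06 and 1.12 in replicates 1, 2 and 3. Of 29 fibrinogen and liver-type plasma protein genes, 13 fell in each arm, with ratios of 1.18, 0.957 and 0.984, and FGL1, AMBP and C5 were kept. The 17 chemokines had 3 falls in siPKCiz and 5 in siControl, with ratios of 0.871, 0.949 and 1.02. Of 23 integrated stress response genes, 6 fell in siPKCiz and 7 in siControl, with ratios of 0.971, 0.952 and 1.03.

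Cell cycle and DNA replication genes had the lowest list median with all 3 replicates. Over 40 members it was -0.17, and -0.10 without replicate 1, where NRF2 targets were lowest at -0.16. It was -0.23, -0.10 and -0.11 in replicates 1, 2 and 3, and 4 members fell in siPKCiz against 1 that fell and 1 that rose in siControl, beside 6.09% and 6.46% of all genes that fell. The ratio of the 9 responding members was 1.67, 1.12 and 1.41, above 1 in each number. The leading member, CCND3 (cyclin D3), had -0.36, -0.91 and -0.70 in siPKCiz and -0.12, -0.30 and -0.40 in siControl (-0.38 ± 0.16, not called).

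**Figure D5:**
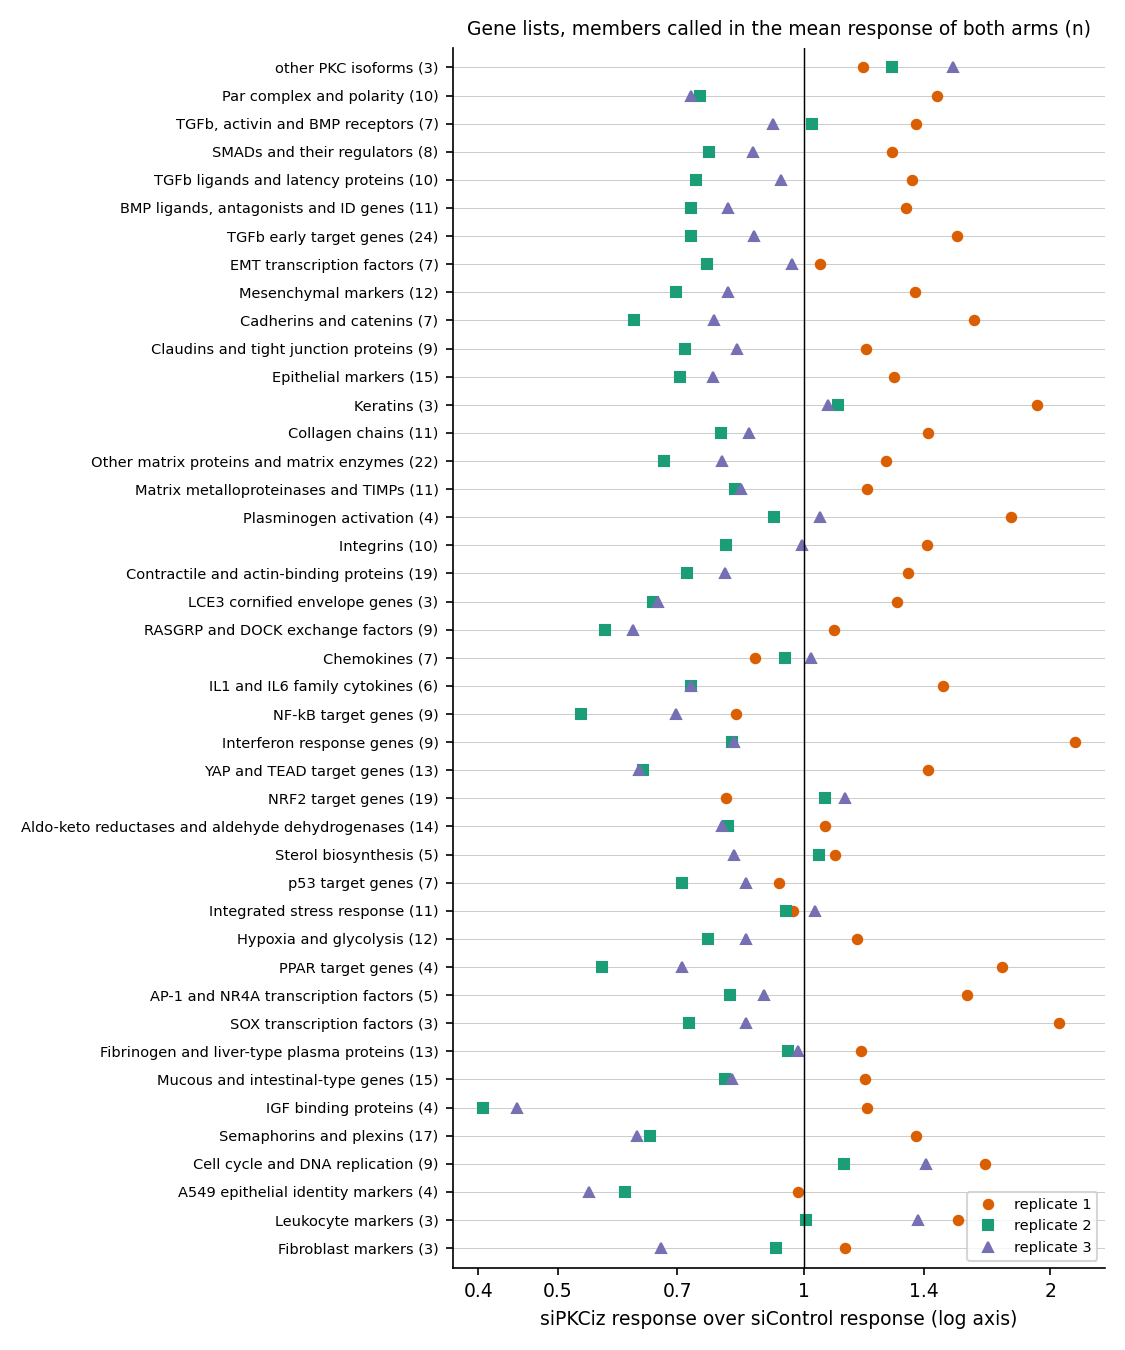
Size of the siPKCiz response divided by that of siControl (log axis) in each replicate number for 43 gene lists, over the members called in the mean response of both arms (number in brackets). Replicate 1 lies above 1 in 37 lists, while replicate 2 lies above 1 in 7 and replicate 3 in 8.

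At 8 h the same difference was called for 0 genes (625 at an unadjusted p of 0.05), and 0 genes were called in the direct comparison of 24 h with 8 h (822 at an unadjusted p of 0.05, limma). If no gene differed, about 919 would pass the unadjusted limit in either comparison. Both times share the untreated arrays. Side by side, without replicate 1 the difference was -2.28 at 24 h and -2.04 at 8 h for ODAPH, -2.16 and -1.94 for RASGRP3, -2.05 and -1.03 for IL1A, and -1.10 and -1.03 for VEGFA. For 5 genes the 24 h difference was lower than the 8 h one in the direct comparison without replicate 1, which uses no untreated array. They were IGFBP5 (-1.49, limma adjusted p = 0.042), SLC6A13 (-1.12, adjusted p = 0.024), HS3ST3B1 (-0.90, adjusted p = 0.024), TNFAIP6 (-0.89, adjusted p = 0.024) and LCE3E (-0.84, adjusted p = 0.034).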

How the data were processed

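RNA from A549 cells was hybridised to whole-transcript arrays in 6 groups of 3 biological replicates. The authors deposited linear intensity values made with RMA and Partek, per the submitters' processing notes; versions are not given in the sources used here. Log2 was taken once and nothing else was normalized. Of 28869 probe sets, 19310 had 1 symbol in the platform annotation, 1752 had several and 7807 had none listed; the brightest stood for each gene, which left out 933 and gave 18377 genes. Limma 3.58.1 in R 4.3.3 fitted 6 group means over 18 arrays with empirical Bayes moderation (12 residual, 18.1 total degrees of freedom), and genes were called at 0.05 after Benjamini-Hochberg adjustment over the 18377 genes. The fit without replicate 1 had 6 residual degrees of freedom. Array data have no read depth, and 3 arrays per group, or fewer without replicate 1, limit the precision.

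A response was damped or enlarged where siControl responded and the difference was called against or with it, gained where only siPKCiz responded, and kept as defined in the text. The members and lists were chosen with earlier results of these data known. The named genes were PRKCI, PRKCZ, transition and receptor markers, the 10 largest kept responses and the largest difference in each list; as no difference was called with all replicates, the leaders without replicate 1 and the genes of 1 sign in all numbers were added after seeing the data. This test of the difference at 24 h was also run on simulated data of 18377 genes with independent noise. With 18 arrays it recovered 32% of genes at 0.5, 92% at 1 and 100% at 2 log2 units. Without replicate 1 it recovered 10%, 82% and 98%. In both cases the noise was drawn at the spread of the fit over 18 arrays, replicate 1 included. The second set of shares therefore does not describe the spread of the real fit without replicate 1. No simulated replicate ran opposite to the others. The shares therefore do not carry over to genes with a wide spread, such as RASGRP3 (SE 0.53) and ODAPH (SE 0.65). The median SE was 0.141. Alternatives were the replicate number as a factor, other normalizations, filters, moderation, weights, probe sets, folds and left-out arrays. Promoters are RefSeq's (GRCh38.p14).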

Additional observations from a re-analysis of the deposited data

Results flagged for a closer look

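In 2 genes named for a shared sign over the replicate numbers, all 3 siPKCiz responses at 24 h had the opposite sign to all 3 siControl responses. SORL1, a sorting receptor, had 0.42, 0.10 and 0.30 in siPKCiz and -0.32, -0.53 and -0.40 in siControl, a difference of 0.688 (limma unadjusted p = 0.00021, not called with all 3 replicates and called at 0.67 without replicate 1, adjusted p = 0.041). The siControl fall of SORL1 was called and its siPKCiz change was not. RNU4-2, a spliceosomal small nuclear RNA, had -0.20, -0.51 and -0.58 in siPKCiz and 0.50, 0.44 and 0.62 in siControl, a difference of -0.952 (limma unadjusted p = 0.027, not called with or without replicate 1). Neither response of RNU4-2 was called by itself, its intensity lay between 88.6 and 197.8 on the 12 arrays, and its sequence has near-identical copies in the genome, so its value is uncertain. The genes were picked for their sign pattern, so the pattern is no evidence of its own.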

How the results depend on the processing

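The count of genes called at 24 h was 0 with all arrays, and 0 with the replicate number as a block, the 12 arrays alone, quantile normalization, median centring, dim genes left out, trend and robust moderation, all probe sets or a 1.5-fold limit. Array weights, which gave replicate 1 weights of 0.41 to 0.70, called 1 gene (MATN3, lower and damped) and kept 233 responses. An unadjusted p gave 705, where about 919 would pass if no gene differed. Leaving out arrays gave 0 to 80 calls, 0 to 31 higher, 0 to 49 lower, 0 to 77 damped, 0 to 1 enlarged, 0 to 2 gained, 44 to 180 kept and 0 to 5 for 24 h against 8 h; the cause was not tested. The highest values came without replicate 1. Without it the 8 h difference, called for 0 genes with all arrays, was called for 58. Without the siControl 24 h array of replicate 1 alone, 3 genes were called, IL1A, ELMOD1 and SLC27A2. The kept count was 44 without replicate 2, 49 without replicate 3, 100 without the siControl 24 h array of replicate 2, 126 under the block and 1212 with a limit of 100%. Same-numbered arrays correlated between -0.39 and 0.15 in their deviations, so the numbers are not shown to pair the samples. The ratio of response sizes stayed above 1 in replicate 1 (1.17 to 1.29) and below 1 in replicate 2 (0.706 to 0.785) and replicate 3 (0.744 to 0.857) under the gene choices and scalings run. Over 94 named genes and 24 alternatives, 41 values gained a call, 38 of them without replicate 1, 30 uncalled values changed sign on leaving out arrays and 2 under other settings, and none changed sign while called. With 3 arrays per group, the median half-width of the interval over all genes was 0.296 log2 units. Leading genes had wider intervals with all 3 replicates, such as -2.43 to -0.20 for RASGRP3 and -2.47 to 0.25 for ODAPH.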
